A study of Mus musculus with 9 samples.

Results

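The genes described here are 42 cytosolic and mitochondrial molecular chaperones, with their co-chaperones and heat shock factors, measured in mouse liver. They were taken by name from the messenger RNA table, which holds 21870 genes, and all 42 were found. By family they were 8 cytosolic HSP70 genes, 2 cytosolic HSP90 genes, 8 DNAJ genes, 4 small heat shock proteins, 5 co-chaperones, 2 heat shock factors, 8 subunits of the cytosolic chaperonin CCT and 5 mitochondrial chaperones. The 9 libraries came from livers of wild-type C57 BL6 mice, 8 weeks old and 20 g on average, in 3 groups of 3. The dmPGE2+APAP mice received acetaminophen (APAP, 500 mg/kg) by intraperitoneal injection, and 1 h earlier 300 μg/kg of dmPGE2, a long-acting relative of the lipid mediator prostaglandin E2, by the same route. The APAP mice were given the same dose of APAP, an analgesic that injures the liver in overdose, and the Control mice were given saline. All livers were collected at 6 h. The labels do not say whether each library is a separate animal, so p-values measure the spread between these libraries, which may be technical. There was no group given dmPGE2 without APAP. Values are FPKM, a fragment level per transcript length and per mapped total that does not give the number of reads behind it.

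Chaperones bind unfolded protein chains and keep them from aggregating. HSP70 proteins do this in cycles that J-domain (DNAJ) partners start and nucleotide exchange factors end, HSP90 finishes the folding of signalling proteins, small heat shock proteins hold unfolded chains without using ATP, and the ring-shaped CCT chaperonin folds actin and tubulin. In mitochondria, HSPA9 and the HSPD1 and HSPE1 ring fold imported proteins. When unfolded protein builds up in the cytosol, heat shock factor 1 (HSF1) binds heat shock elements in the promoters of inducible chaperone genes and raises their transcription. CCT subunits and mitochondrial chaperones are abundant in unstressed cells. Acetaminophen is turned in hepatocytes into a reactive metabolite that binds protein thiols.

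After APAP, cytosolic HSP70, HSP90, DNAJ and small heat shock protein genes were higher, among them the stress-inducible Hspa1a, Hspa1b, Dnajb1 and Hsp90aa1, while no CCT or mitochondrial chaperone gene passed the test. Of the 42 genes, 15 rose in APAP livers relative to Control livers at a limma adjusted p below 0.05 and none fell, where 20.7% of the 11557 genes tested were called, 11.3% higher and 9.4% lower. The 22 HSP70, HSP90, DNAJ and small heat shock protein genes held 13 of these calls, and their median log2 fold change was 0.76. The 13 CCT and mitochondrial chaperone genes held 0 of them by limma, with 4 at an unadjusted p below 0.05 (35.5% of all genes were), and their median was 0.07. The median over all genes tested was -0.02. All 42 genes passed the filter of 0.5 FPKM in at least 3 libraries, but Hspa1a reached that level in only 1 Control library. It thus passed through the treated livers, where it was high. Its calls against Control, which the counts include, are therefore no independent evidence of a difference. By family the calls were 6 of 8 HSP70, 2 of 2 HSP90, 3 of 8 DNAJ, 2 of 4 small heat shock protein and 2 of 5 co-chaperone genes. Neither heat shock factor was called. In whole liver, fewer cells of a type and less RNA per cell cannot be told apart.

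**Figure D1:**
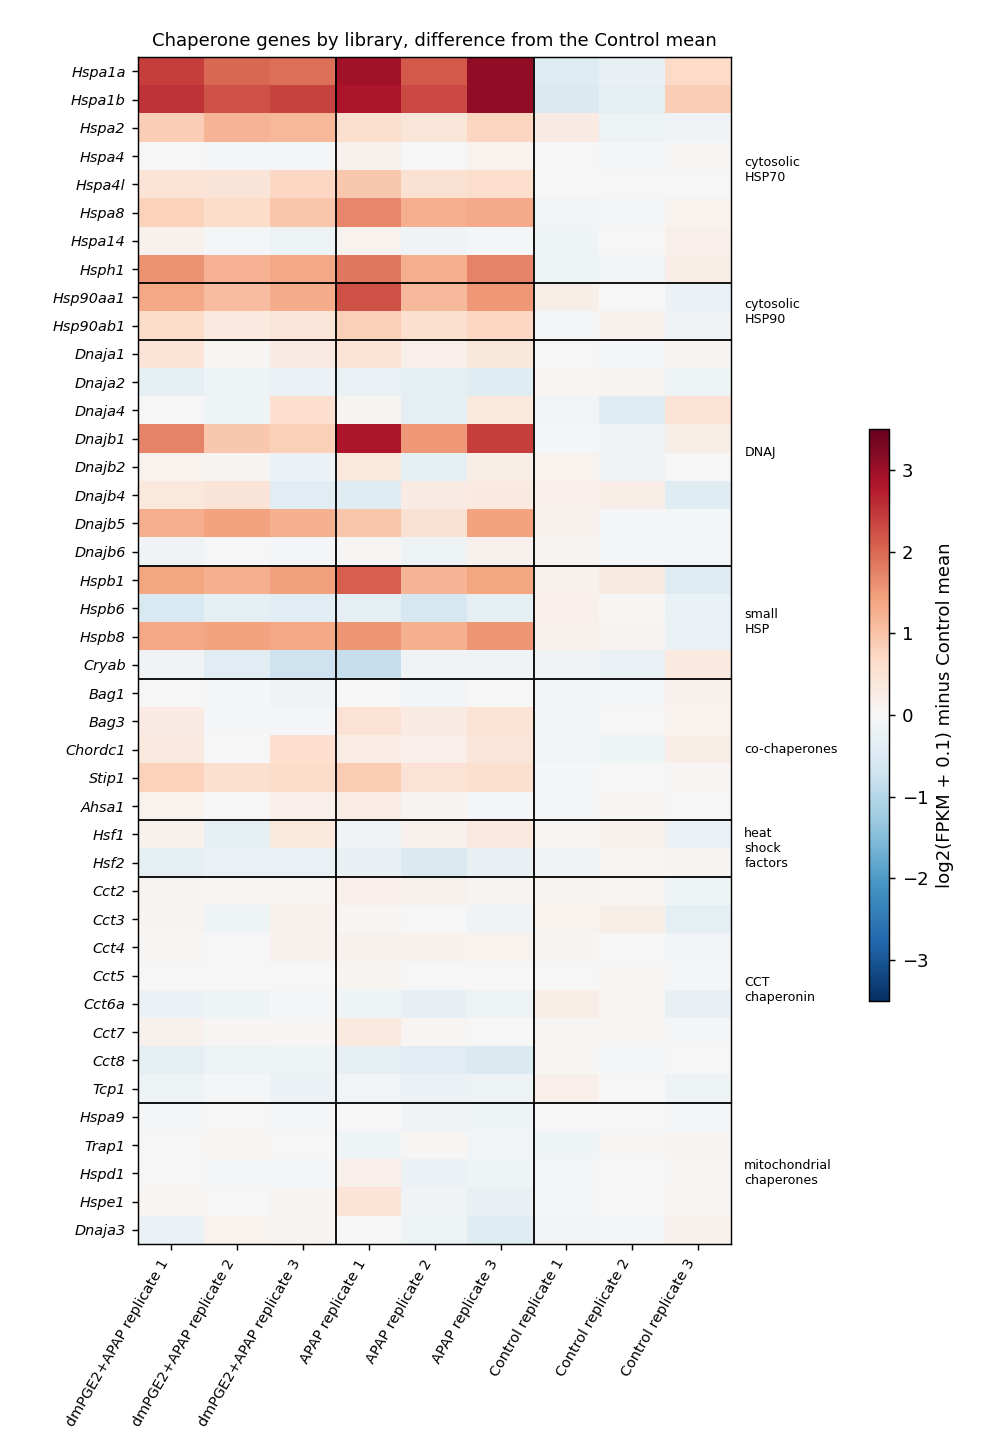
Heat map of log2(FPKM + 0.1) minus the mean of the 3 Control libraries, for each of the 42 genes (rows, by family) in each of the 9 libraries (columns). Red is above and blue below the Control mean; red is strongest in Hspa1a, Hspa1b and Dnajb1 and the 13 CCT and mitochondrial rows stay pale in all 3 groups.

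The HSP70 pair Hspa1a and Hspa1b, the stress-inducible cytosolic HSP70 genes, showed the largest differences of the 42. Hspa1b had 12.4, 10.1 and 11.1 FPKM in dmPGE2+APAP livers, 15.8, 10.6 and 18.5 FPKM in APAP livers, and 1.42, 1.61 and 3.86 FPKM in Control livers. All 6 treated livers were above all 3 Control livers, of which replicate 3 was the highest. Of the 11557 genes tested, 1495 were above Control without overlap in APAP livers and 1308 in dmPGE2+APAP livers. Hspa1b was 7.32-fold higher in APAP than in Control livers (95% interval 4.43 to 12.1, limma adjusted p = 0.000594). Hspa1a had 3.14, 2.33 and 2.19 FPKM in dmPGE2+APAP livers, 4.47, 2.58 and 5.04 FPKM in APAP livers, and 0.346, 0.405 and 0.865 FPKM in Control livers. Hspa1a, which entered the test through its treated livers, was 7.13-fold higher in APAP than in Control livers (limma adjusted p = 0.000555). Fold changes are on the log2(FPKM + 0.1) scale, which understates those of genes at such low levels.

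The 2 genes lie side by side on chromosome 17 of GRCm38, on the minus strand, Hspa1a at chr17:34969190-34972156 and Hspa1b at chr17:34956436-34959238. In the GENCODE M21 annotation their coding sequences are 1926 and 1929 bases long and match at 1890 positions (97.98%) when aligned from the start codon, while their 3′ UTRs are 810 and 643 bases long. Reads from the coding sequence can therefore be split between them, and the level of each gene alone is uncertain. The ratio of Hspa1b to Hspa1a lay between 3.53 and 5.08 in all 9 libraries. Their summed level was 13.8 ± 1.60 FPKM in dmPGE2+APAP livers, 19.0 ± 5.28 FPKM in APAP livers and 2.84 ± 1.64 FPKM in Control livers (SD, n = 3 each). The sum was 7.54-fold higher in APAP livers and 5.74-fold higher in dmPGE2+APAP livers than in Control livers (limma adjusted p = 0.000570 and 0.00135). Hspa1a also overlaps Gm20481 on the other strand, and whether the quantification used strand is not stated. Such overlaps are not particular to Hspa1a. Among others, Hspa14 overlaps Gm45902 on the same strand, and Hspb6 overlaps Proser3 and Lin37 on the other strand.

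Promoter sequence was read for the stretch from 120 bases before to 30 bases after the RefSeq start (build GRCm38.p6), and it is shown for the pair and for 4 other genes because heat shock elements, the binding motif of HSF1, are built from GAA units and their reverse TTC. Capitals mark matches to a run of 2 units (GAANNTTC or TTCNNGAA) in Hspa1a, Hspa1b, Hspb1 and Hspb8, and of 3 units (GAANNTTCNNGAA or TTCNNGAANNTTC) in Hsph1 and Dnajb6. Only genes with a match are shown. The stretches are Hspa1a at chr17:34972127-34972276 (minus strand), Hspa1b at chr17:34959209-34959358 (minus strand), Hspb1 at chr5:135887799-135887948 (plus strand), Hspb8 at chr5:116422835-116422984 (minus strand), Hsph1 at chr5:149636286-149636435 (minus strand), one of its annotated starts, and Dnajb6 at chr5:29735778-29735927 (plus strand).
Hspa1a: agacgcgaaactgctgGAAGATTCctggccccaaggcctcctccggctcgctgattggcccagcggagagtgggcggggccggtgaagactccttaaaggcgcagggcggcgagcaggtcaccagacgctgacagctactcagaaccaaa
Hspa1b: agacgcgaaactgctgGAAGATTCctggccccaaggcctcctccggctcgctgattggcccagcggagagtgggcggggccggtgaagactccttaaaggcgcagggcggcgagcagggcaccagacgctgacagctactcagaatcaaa
Hspb1: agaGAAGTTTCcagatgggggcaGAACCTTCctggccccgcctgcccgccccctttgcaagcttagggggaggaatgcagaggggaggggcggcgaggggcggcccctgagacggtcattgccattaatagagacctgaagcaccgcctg
Hspb8: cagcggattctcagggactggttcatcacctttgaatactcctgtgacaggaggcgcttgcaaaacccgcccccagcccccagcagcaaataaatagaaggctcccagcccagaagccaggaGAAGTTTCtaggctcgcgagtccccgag
Hsph1: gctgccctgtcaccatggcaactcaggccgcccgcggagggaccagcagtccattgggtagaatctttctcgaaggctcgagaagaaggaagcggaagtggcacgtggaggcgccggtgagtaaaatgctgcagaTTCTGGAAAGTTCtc
Dnajb6: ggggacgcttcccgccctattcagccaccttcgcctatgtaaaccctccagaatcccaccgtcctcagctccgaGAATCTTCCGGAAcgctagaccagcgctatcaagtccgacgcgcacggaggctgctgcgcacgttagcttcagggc

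Over the whole window of 250 bases before to 50 after the start, the Hspa1a and Hspa1b promoters were identical at 296 of 300 bases, and the match stands at positions -104 to -97 relative to the start in both. RefSeq windows were matched for 35 of the 42 genes; Hspa8, Hsp90aa1, Hsp90ab1, Cryab, Hsf1, Cct4 and Hspa9 had none. Each pattern was searched in both directions, as both forms read on either strand, and every 3-unit match also holds a 2-unit match. A 2-unit run occurred in at least 1 window of 17 of the 35 genes, against 15.8% of the 16569 genes with a window: in 7 of the 12 genes that rose after APAP and in 10 of the 23 that were not called. Among the genes that rose, Hspa2, Hspa4l, Dnajb1, Dnajb5 and Stip1 had no match in any window. A 3-unit run occurred in 5 of the 35, against 0.579% of all genes with a window, and of these only Hsph1 rose, whereas Dnajb6, Chordc1, Hspd1 and Hspe1 were not called. Hspd1 and Hspe1 lie head to head on chromosome 1 and one window of Hspd1 overlaps that of Hspe1, so they share this sequence. These matches describe letters in the window and not binding.

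Hspa8, the constitutive and most abundant cytosolic HSP70, was among the genes that rose. It had 439, 393 and 488 FPKM in dmPGE2+APAP livers, 800.0, 609.7 and 625 FPKM in APAP livers, and 237, 245 and 271 FPKM in Control livers. The 3 groups did not overlap, with APAP highest and Control lowest. It was 2.92-fold higher in APAP than in Control livers (95% interval 2.33 to 3.66, limma adjusted p = 0.000255). Hspa8 made up most of the summed HSP70 level, which was 462 to 561 FPKM in dmPGE2+APAP livers, 680.1 to 893 FPKM in APAP livers and 283 to 324 FPKM in Control livers. The HSP110 genes act as nucleotide exchange factors for HSP70. Of these Hsph1 had 22.7, 17.8 and 19.7 FPKM in dmPGE2+APAP livers, 27.8, 18.5 and 25.4 FPKM in APAP livers, and 6.88, 7.16 and 8.93 FPKM in Control livers, 3.34-fold higher in APAP than in Control livers (limma adjusted p = 0.000255). Hspa4l rose 1.77-fold, while Hspa4 averaged 29.4 ± 1.79 FPKM in APAP livers and 27.7 ± 1.03 FPKM in Control livers (SD, n = 3) and was not called.

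Hspa2, a testis-enriched HSP70, stood at a low level and had another order of groups. It had 1.67, 2.11 and 2.07 FPKM in dmPGE2+APAP livers, 1.33, 1.22 and 1.54 FPKM in APAP livers, and 1.09, 0.766 and 0.802 FPKM in Control livers. Here the dmPGE2+APAP livers were highest and no 2 groups overlapped. It rose 1.61-fold in APAP relative to Control livers (limma adjusted p = 0.0184), a call that was lost without APAP replicate 3 or Control replicate 2 (highest adjusted p 0.0627). Hspa14, a ribosome-associated HSP70, ranged from 5.32 to 6.85 FPKM over the 9 libraries with the groups overlapping.

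**Figure D2:**
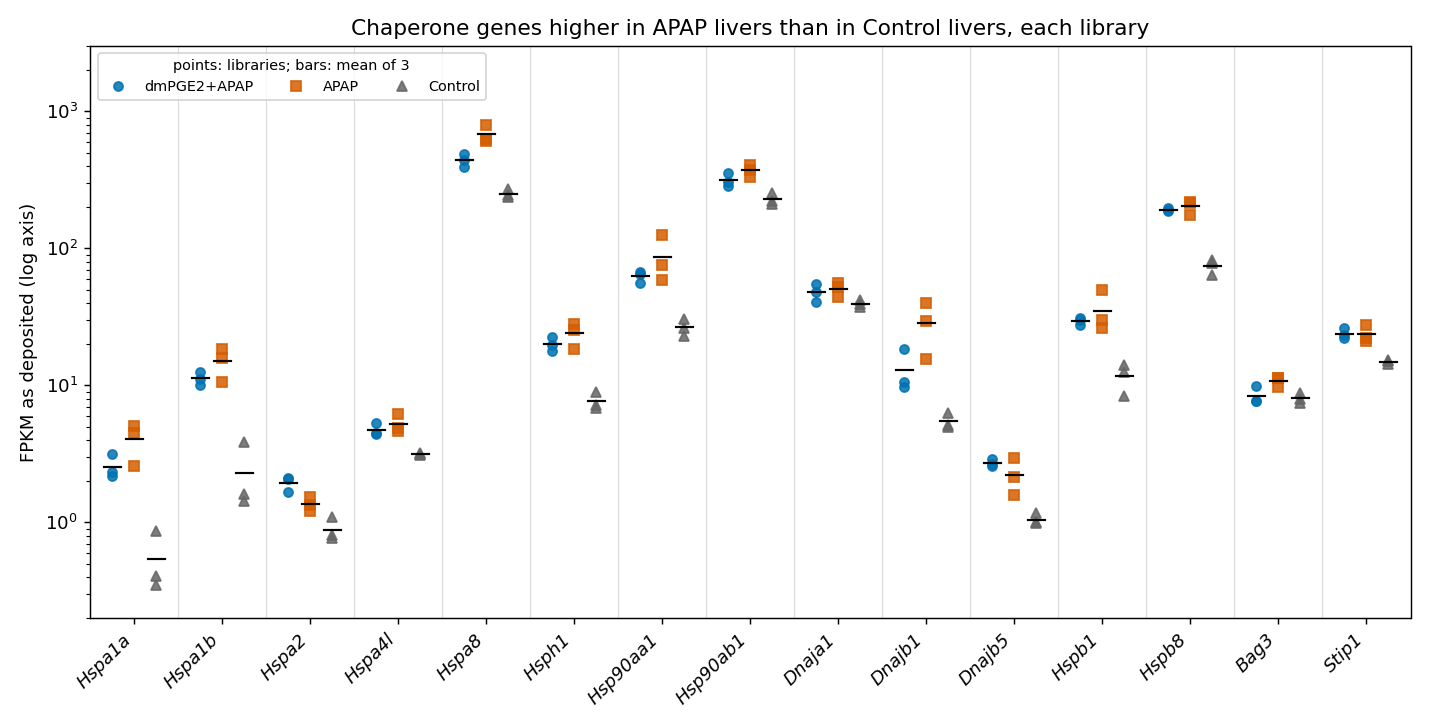
FPKM on a log axis for the 15 genes that rose in APAP relative to Control livers; points are libraries and bars the mean of 3, in dmPGE2+APAP (circles), APAP (squares) and Control (triangles). Control points lie below all APAP points for each gene, and the dmPGE2+APAP points of Hspa8 lie between the other 2 groups.

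Both cytosolic HSP90 genes rose. Hsp90aa1, the inducible isoform, had 67.3, 56.2 and 65.3 FPKM in dmPGE2+APAP livers, 125, 58.3 and 76.2 FPKM in APAP livers, and 30.5, 26.3 and 23.0 FPKM in Control livers. APAP replicate 1 stood well above the other APAP livers, and no treated liver reached down to the Control range. Hsp90aa1 was 3.37-fold higher in APAP than in Control livers (95% interval 2.29 to 4.97, limma adjusted p = 0.00189), a log2 fold change of 1.75 that lay between 1.45 and 1.98 over the alternatives. Hsp90ab1, the constitutive isoform, had 357, 286 and 304 FPKM in dmPGE2+APAP livers, 403, 334 and 375 FPKM in APAP livers, and 220.0, 255 and 210.1 FPKM in Control livers, 1.77-fold higher in APAP than in Control livers (limma adjusted p = 0.00447). The difference was thus larger on the fold scale for the inducible isoform, and the difference between the 2 genes was not tested.

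Among the co-chaperones, Stip1, which links HSP70 to HSP90, and Bag3, an HSP70 exchange factor of stressed cells, rose. Stip1 had 26.0, 22.0 and 23.4 FPKM in dmPGE2+APAP livers, 27.6, 21.2 and 22.1 FPKM in APAP livers, and 14.2, 15.0 and 15.3 FPKM in Control livers, 1.72-fold higher in APAP than in Control livers (limma adjusted p = 0.00281). Bag3 had 9.85, 7.68 and 7.73 FPKM in dmPGE2+APAP livers, 11.4, 9.79 and 11.2 FPKM in APAP livers, and 7.46, 7.92 and 8.74 FPKM in Control livers. Its dmPGE2+APAP values fell among those of both other groups, and APAP was above Control in all 3 libraries (1.46-fold, limma adjusted p = 0.0143; 0.0515 without APAP replicate 1). Bag1, also an HSP70 exchange factor, Ahsa1, an activator of the HSP90 ATPase, and Chordc1, an HSP90 partner, were not called. Bag1 ranged from 20.4 to 24.7 FPKM and Ahsa1 from 32.5 to 40.2 FPKM over the 9 libraries. Chordc1 averaged 12.0 ± 1.05 FPKM in APAP livers and 9.92 ± 1.53 FPKM in Control livers (SD, n = 3; limma adjusted p = 0.105).

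Of the DNAJ genes, which bring substrates to HSP70 and start its ATP cycle, 3 rose. Dnajb1, the inducible partner of HSPA1 and HSPA8, had 18.4, 10.5 and 9.76 FPKM in dmPGE2+APAP livers, 39.7, 15.7 and 29.7 FPKM in APAP livers, and 5.16, 4.97 and 6.29 FPKM in Control livers. The APAP livers spread widely, and the lowest of them lay below the highest dmPGE2+APAP liver. Dnajb1 was 5.20-fold higher in APAP than in Control livers (95% interval 3.09 to 8.74, limma adjusted p = 0.00178). Dnajb5 had 2.65, 2.92 and 2.59 FPKM in dmPGE2+APAP livers, 2.15, 1.57 and 2.96 FPKM in APAP livers, and 1.16, 0.981 and 0.998 FPKM in Control livers, 2.13-fold higher in APAP than in Control livers (limma adjusted p = 0.00453). Dnaja1 rose 1.39-fold (limma adjusted p = 0.0334), but this call was lost in 7 of 16 alternatives, among them each fit without APAP replicate 1 or 3 or without any 1 Control library. The other 5, Dnaja2, Dnaja4, Dnajb2, Dnajb4 and Dnajb6, were not called. Over the 9 libraries Dnaja4 ranged from 0.789 to 1.67 FPKM, Dnajb2 from 7.45 to 12.2 FPKM, Dnajb4 from 7.26 to 13.6 FPKM and Dnajb6 from 21.1 to 26.5 FPKM, with overlapping groups. Dnaja2 had 28.7, 26.8 and 25.1 FPKM in APAP livers and 35.4, 35.8 and 30.3 FPKM in Control livers without overlap, and it was called lower only when the deposited FPKM were used with no rescaling (adjusted p = 0.0399). In deposited FPKM, 3541 of the 11557 genes tested were lower in APAP than in Control livers without overlap, against 1495 higher.

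The small heat shock proteins divided into a pair that rose and a pair that did not. Hspb8, which works with BAG3, had 188, 197 and 189 FPKM in dmPGE2+APAP livers, 217, 176 and 215 FPKM in APAP livers, and 81.9, 78.6 and 63.5 FPKM in Control livers. Hspb1, also called HSP25 in the mouse, had 29.8, 27.4 and 31.0 FPKM in dmPGE2+APAP livers, 49.5, 26.0 and 29.8 FPKM in APAP livers, and 12.6, 14.2 and 8.35 FPKM in Control livers. In both genes every treated liver was above every Control liver and the 2 treated groups overlapped. Hspb8 was 2.96-fold higher (95% interval 2.41 to 3.63, limma adjusted p = 0.000166) and Hspb1 3.19-fold higher (2.11 to 4.83, limma adjusted p = 0.00312) in APAP than in Control livers. Hspb6 averaged 2.90 ± 0.288 FPKM in APAP livers and 3.91 ± 0.570 FPKM in Control livers, and Cryab 0.765 ± 0.219 and 0.994 ± 0.244 FPKM (SD, n = 3 each; limma adjusted p = 0.160 and 0.539). Without Control replicate 3, Hspb6 was called lower (adjusted p = 0.0338). Hspb6 and Cryab are abundant in muscle. The 8 muscle markers, set beside them because tissue carried along could add to these genes, summed to 1.26 to 1.86 FPKM in dmPGE2+APAP livers, 1.33 to 1.71 FPKM in APAP livers and 1.25 to 1.49 FPKM in Control livers, nearly all of it Des, and Myh1 and Myh4 were at 0 in every library.

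The transcripts of the heat shock factors themselves did not pass the test. Hsf1, the main regulator of the heat shock response, had 4.70, 3.36 and 5.54 FPKM in dmPGE2+APAP livers, 3.91, 4.73 and 5.36 FPKM in APAP livers, and 4.36, 4.73 and 3.69 FPKM in Control livers, with all groups overlapping (limma adjusted p = 0.436 for APAP against Control). HSF1 is controlled mainly at the protein level, which was not measured. Hsf2, a related factor, had 9.07, 9.57 and 9.56 FPKM in dmPGE2+APAP livers, 9.35, 7.91 and 9.27 FPKM in APAP livers, and 10.3, 11.4 and 11.9 FPKM in Control livers. Both treated groups lay below Control without overlap in deposited FPKM, as for 3541 (APAP) and 3589 (dmPGE2+APAP) of the 11557 genes tested. The difference of APAP from Control was called only with no rescaling (adjusted p = 0.0327, against 0.108). Of 8 non-chaperone genes known as HSF1 targets, 6 rose in APAP relative to Control livers, where 11.3% of all genes were called higher, and 3 rose in dmPGE2+APAP relative to Control livers, where 9.15% were. This list was chosen with earlier results of these data known, so its counts are no independent evidence, and HSF1 activity was not tested. Ier5, an immediate early gene that promotes HSF1 activity, had 5.08, 1.95 and 1.50 FPKM in dmPGE2+APAP livers, 5.43, 4.47 and 6.04 FPKM in APAP livers, and 1.49, 1.17 and 1.32 FPKM in Control livers. Ier5 was 4.10-fold higher in APAP than in Control livers (limma adjusted p = 0.00604). Zfand2a, a proteasome-associated zinc finger gene, was 2.73-fold higher (limma adjusted p = 0.00254).

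No CCT subunit or mitochondrial chaperone was called in APAP against Control livers. Their log2 fold changes in APAP relative to Control livers ran from -0.28 to 0.27. The median was 0.13 for CCT and 0.05 for the mitochondrial genes, and with no rescaling 0.004 and -0.07, so the sign of the mitochondrial median depends on the scaling. CCT summed to 290.0 to 300.1 FPKM in dmPGE2+APAP livers, 284 to 307 FPKM in APAP livers and 275 to 325 FPKM in Control livers. Cct2, Cct4 and Cct7 lay above and Cct8 below Control at an unadjusted p below 0.05, and none passed after adjustment over all genes. Cct8 had 35.3, 39.5 and 40.4 FPKM in dmPGE2+APAP livers, 35.6, 34.3 and 31.4 FPKM in APAP livers, and 46.3, 43.6 and 44.0 FPKM in Control livers. Every treated liver was below every Control liver, and Cct8 was called lower only with no rescaling (adjusted p = 0.0109, against 0.0685). In deposited FPKM, 3541 of the 11557 genes tested lay below Control without overlap in APAP livers and 3589 in dmPGE2+APAP livers. Cct3, Cct5, Cct6a and Tcp1, which is the first CCT subunit, ranged over the 9 libraries from 23.1 to 33.4, 46.6 to 51.1, 37.3 to 53.0 and 32.2 to 41.6 FPKM, with overlapping groups. The 8 subunits are used in equal numbers in each ring, and in Control livers their mean levels per length ran from 25.8 FPKM for Cct7 to 48.3 FPKM for Cct5.

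Among the mitochondrial genes, Hspd1, which forms the folding ring, averaged 130.4 ± 3.37 FPKM in dmPGE2+APAP livers, 129 ± 19.0 FPKM in APAP livers and 133 ± 2.82 FPKM in Control livers (SD, n = 3 each). Its lid Hspe1 averaged 57.2 ± 2.06, 57.5 ± 16.5 and 54.8 ± 2.15 FPKM in the same order. The wide APAP spread of both came from replicate 1, at 150.2 FPKM for Hspd1 and 76.4 FPKM for Hspe1, above the other APAP livers at 115 and 120.5 FPKM and at 50.5 and 45.8 FPKM. Hspa9, the mitochondrial HSP70, averaged 138 ± 3.97 FPKM in dmPGE2+APAP livers, 135 ± 8.32 FPKM in APAP livers and 143 ± 3.30 FPKM in Control livers. Trap1, the mitochondrial HSP90, and Dnaja3, the mitochondrial J protein, ranged from 40.4 to 47.8 FPKM and from 29.5 to 44.6 FPKM over the 9 libraries, with overlapping groups. GENCODE M21 names 15 pseudogenes after 6 of the 42 genes, 5 for Hspd1 and 6 for Hspe1, whose reads could be split with the parent gene, so these levels are uncertain.

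**Figure D3:**
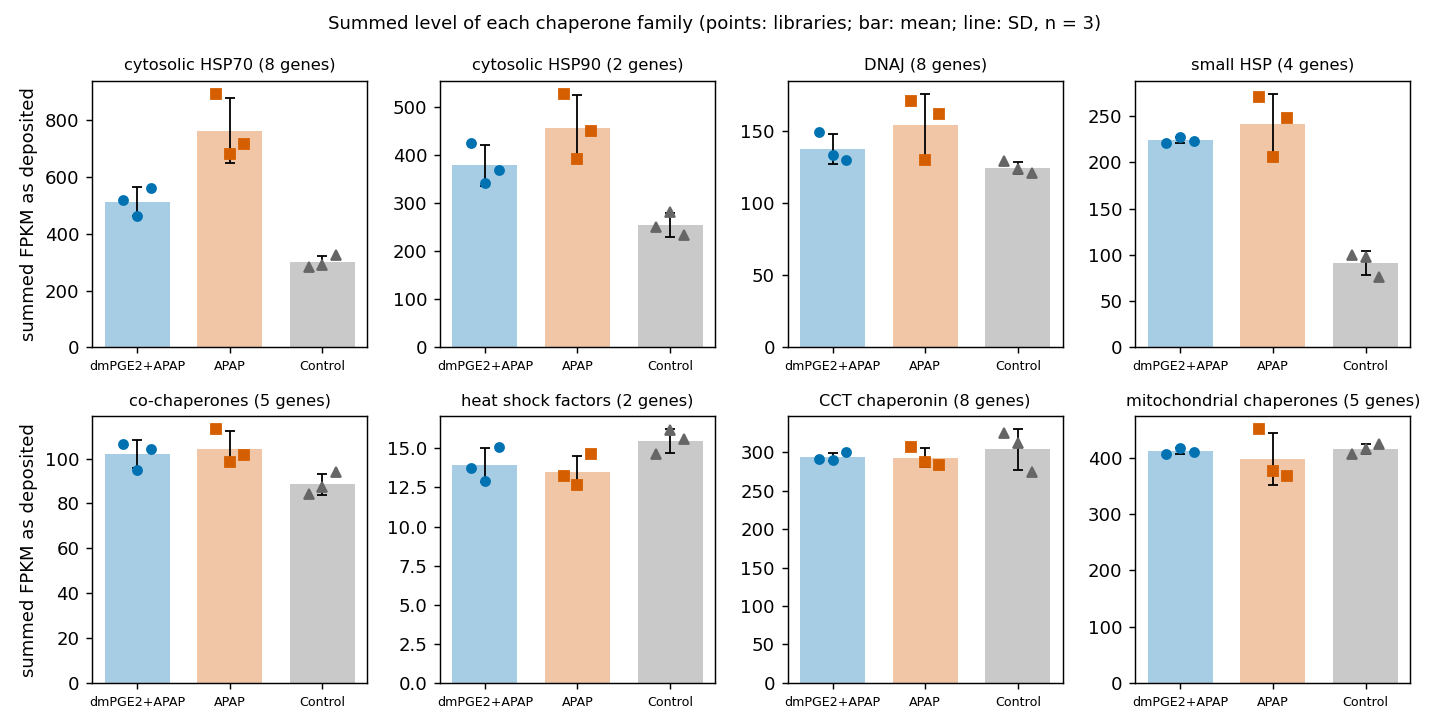
Summed FPKM of each family on an axis from 0, as points for libraries, bars for the mean and lines for the SD (n = 3), in dmPGE2+APAP, APAP and Control livers. The HSP70, HSP90 and small heat shock protein sums stand above Control in both treated groups, and the CCT sums overlap in all 3 groups.

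The effect of dmPGE2 was read from dmPGE2+APAP against APAP livers. By limma 0 of the 11557 genes (0%) and 0 of the 42 chaperone genes had an adjusted p below 0.05; 1082 genes (9.36%) and 4 chaperone genes had an unadjusted p below 0.05. The median log2 fold change was -0.05 over the 22 HSP70, HSP90, DNAJ and small heat shock protein genes, 0.06 over the 13 CCT and mitochondrial genes and 0.03 over all genes. Hspa8 differed by -0.59 on the log2 scale (95% interval -0.91 to -0.26), with dmPGE2+APAP livers at 439.8 ± 47.6 FPKM and APAP livers at 678 ± 106 FPKM (SD, n = 3 each). All 3 dmPGE2+APAP livers were below all 3 APAP livers, as for 8.93% of all genes, and the limma adjusted p was 0.324. Dnajb1 differed by -1.06 (interval -1.81 to -0.31, adjusted p = 0.396) with overlapping groups, and Bag3 by -0.33 (-0.61 to -0.06, adjusted p = 0.463). Hspa2 ran the other way at 0.52 (0.14 to 0.89, adjusted p = 0.403), with all 3 dmPGE2+APAP livers above all 3 APAP livers, as for 7.11% of all genes.

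For the other genes that rose after APAP the intervals spanned 0, and they bound how far the groups could differ. The log2 difference of dmPGE2+APAP minus APAP was -0.57 for Hspa1a (95% interval -1.28 to 0.13), -0.35 for Hspa1b (-1.07 to 0.38) and -0.36 for Hsp90aa1 (-0.92 to 0.20). It was near 0 for Hspb8, at -0.05 (-0.34 to 0.25), and for Stip1, at 0.05 (-0.23 to 0.32). A level 2-fold lower in dmPGE2+APAP livers thus lies outside the intervals of Hspb8 and Stip1 and inside those of Hspa1a and Hspa1b. Ier5 was at 1.95 and 1.50 FPKM in dmPGE2+APAP replicates 2 and 3, against 4.47 to 6.04 FPKM in APAP livers. Replicate 1 of dmPGE2+APAP was at 5.08 FPKM, within the APAP range. No gene of the HSF1 target list, which holds Ier5, was called in this comparison (lowest limma adjusted p 0.45). A link between Ier5 and the chaperone genes was not tested.

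Relative to Control livers, 13 of the 42 genes rose in dmPGE2+APAP livers and none fell, where 16.2% of all genes were called, 9.15% higher and 7.03% lower. The comparison shares its Control libraries with that of APAP and its dmPGE2+APAP libraries with the one above. Of the 15 genes that rose in APAP livers, Dnaja1 (limma adjusted p = 0.0590) and Bag3 (0.273) did not pass here. The median log2 fold change was 0.67 over the 22 HSP70, HSP90, DNAJ and small heat shock protein genes, 0.15 over the 13 CCT and mitochondrial genes and 0.01 over all genes. Hspa1b was 5.75-fold higher (95% interval 3.48 to 9.50, limma adjusted p = 0.00130), Hspa1a 4.80-fold (adjusted p = 0.00195) and Hsph1 2.89-fold (adjusted p = 0.000562). Hspb8 was 2.86-fold higher (2.33 to 3.52, adjusted p = 0.000240), and Hspb1 2.84-fold. Hspa8 was 1.95-fold higher in dmPGE2+APAP than in Control livers, where the APAP value was 2.92-fold, and Dnajb1 was 2.50-fold, where it was 5.20-fold. Dnajb5 was 2.72-fold, where it was 2.13-fold, and Hspa2 2.31-fold, where it was 1.61-fold. The call of Dnajb1 was lost in 4 of 16 alternatives and that of Hsp90ab1 in 3, all of them fits without 1 library (highest adjusted p 0.0782 and 0.0611).

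**Figure D4:**
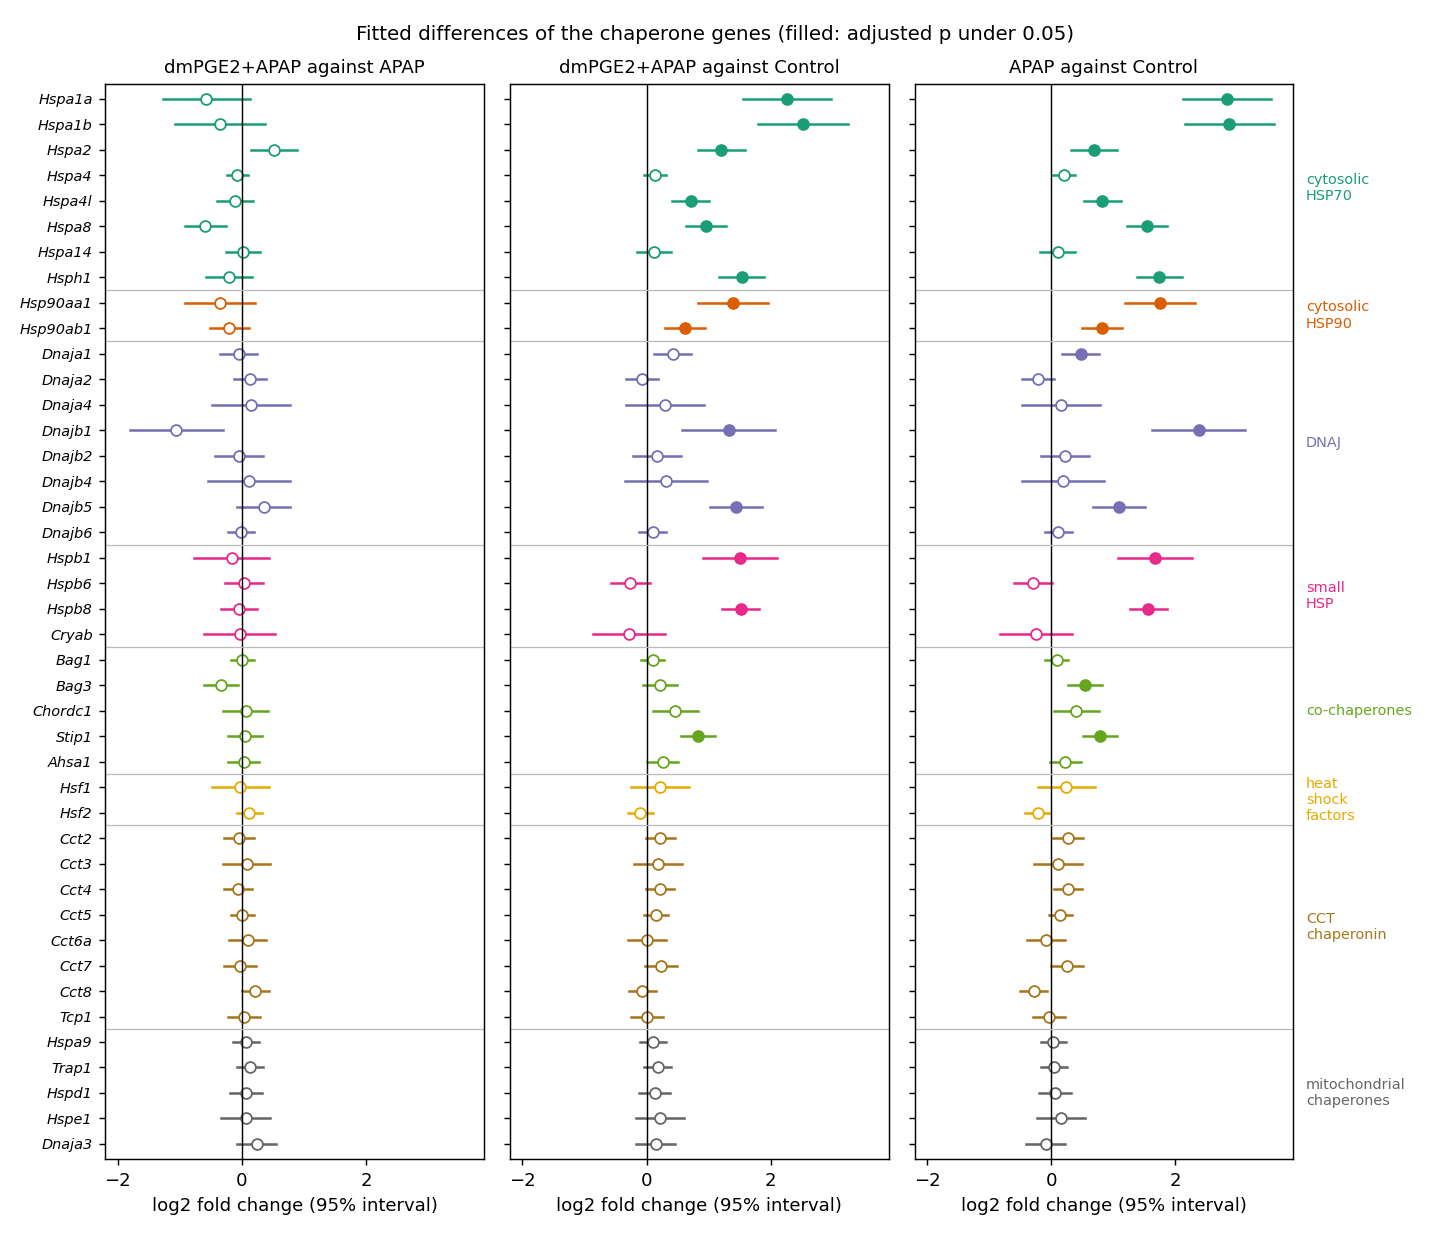
Fitted log2 fold changes (points) with 95% intervals (lines) of the 42 genes by family, for dmPGE2+APAP against APAP, dmPGE2+APAP against Control and APAP against Control; filled points have a limma adjusted p below 0.05. The first panel has no filled point, and the other 2 have 13 and 15, none of them in the CCT, mitochondrial or heat shock factor families.

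Single libraries stood highest or lowest of their group for many of these genes. APAP replicate 1 was the highest APAP library for 29 of the 42 genes and for 11 of the 15 that rose, and APAP replicate 2 was the lowest for 12 of those 15. In the dmPGE2+APAP group, replicate 1 was the highest and replicate 2 the lowest for 10 each of the 15, and Control replicate 3 was the lowest Control library for 23 of the 42. How often each library stood highest or lowest over all genes was not computed, so this is not shown to be particular to these genes. The 42 genes took up 0.503% to 0.549% of the summed FPKM in dmPGE2+APAP livers, 0.573% to 0.725% in APAP livers and 0.405% to 0.427% in Control livers, highest in APAP replicate 1. Without APAP replicate 1, 13 of the 15 calls against Control held, and Dnaja1 and Bag3 did not. Markers of other cell types differed between groups too. The 8 neutrophil markers summed to 5.29 to 11.1 FPKM in dmPGE2+APAP livers, 9.75 to 41.0 FPKM in APAP livers and 2.70 to 7.10 FPKM in Control livers, with the highest value in APAP replicate 1. Ly6g, a defining neutrophil marker, was at 0 in all 3 APAP livers. The 6 platelet markers summed to 3.50 to 8.12, 14.3 to 17.8 and 1.67 to 2.09 FPKM and the 6 erythroid markers to 282 to 312, 391 to 939 and 288 to 398 FPKM in dmPGE2+APAP, APAP and Control livers, and neither list had a marker at 0 in all libraries of a group. In APAP against Control livers, 3 of 5 neutrophil, 4 of 4 platelet, 1 of 4 erythroid, 1 of 6 macrophage, 1 of 4 cholangiocyte and 1 of 7 smooth muscle and stellate markers tested were called higher, and of 6 endothelial markers Lyve1 and Vwf were called higher and Kdr lower. The platelet genes Ppbp and Gp9 reached 0.5 FPKM in no Control library and so entered the test only through the treated livers. The neutrophil gene Retnlg reached that level in 1 Control library, so it also passed through the treated livers. Counts that hold such genes are no independent evidence of a difference. The part of these cell types in the chaperone differences was not tested. The 6 hepatocyte markers, Alb among them, summed to 39169.7 to 43421 FPKM in dmPGE2+APAP livers, 37663 to 44431 FPKM in APAP livers and 32517 to 35208 FPKM in Control livers, and none of the 6 was called.

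The second table, of long noncoding transcripts, listed 111 transcripts of 32 of the 42 genes, 81 annotated as retained introns and 30 as processed transcripts without an open reading frame. Of the 103 tested, 9 rose in APAP relative to Control livers and none fell, where 3.59% of the 22984 transcripts tested were called (2.62% higher). Retained intron and processed transcripts of Hspa8, Hsph1, Hsp90aa1, Hspb8 and Dnajb5, whose genes rose, were among the 9. Hspa8-206 had 2.86, 3.69 and 3.996 FPKM in dmPGE2+APAP livers, 5.45, 3.90 and 4.04 FPKM in APAP livers, and 0.567, 1.26 and 1.56 FPKM in Control livers (3.80-fold for APAP against Control, limma adjusted p = 0.0228). The treated livers lay above all Control livers. Dnaja1-206 had 0.917, 2.01 and 1.34 FPKM in dmPGE2+APAP livers and 0.490, 0.904 and 1.04 FPKM in APAP livers, and it was listed at 0 in 2 Control livers and at 0.185 FPKM in the other (limma adjusted p = 0.0214). The 9 also held transcripts of genes that were not called themselves. Cct2-203 had 0.182, 0.300 and 0.270 FPKM in dmPGE2+APAP livers, 0.571, 0.618 and 0.786 FPKM in APAP livers, and 0.175, 0.257 and 0.187 FPKM in Control livers (2.40-fold for APAP against Control, limma adjusted p = 0.0314). Dnaja3-204 was listed at 0 in all 3 Control livers and at 0.153 to 0.254 FPKM in APAP livers, and Hspa14-203 was 2.43-fold higher (limma adjusted p = 0.0308). Dnaja3-204 reached the filter of 0.1 FPKM in no Control library and Dnaja1-206 in 1, so these entered the test through the treated livers and had to differ.

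In dmPGE2+APAP against APAP livers 0 of the 103 transcripts had a limma adjusted p below 0.05 (0% of all transcripts). In dmPGE2+APAP against Control livers 3 rose, Dnaja1-206, Hspa14-203 and Hspa9-204, where 1.78% of all transcripts were called (1.25% higher). Each of the 9 calls in APAP against Control was lost in at least 5 of its 16 alternatives. Some abundant transcripts differed widely in level between libraries of the same group, and the reason was not tested. Hspa8-207 had 10.7, 10.1 and 31.5 FPKM in dmPGE2+APAP livers, 123, 29.7 and 15.9 FPKM in APAP livers, and 2.48, 4.47 and 18.4 FPKM in Control livers. Dnaja1-204 stood at 26.5 and 25.1 FPKM in 2 dmPGE2+APAP livers, 26.7 FPKM in 1 APAP liver and 23.6 FPKM in 1 Control liver, and at 1.12 to 3.60 FPKM in the other 5. Replicates of 1 group thus differed by more than the groups did. The 6 listed Cct6a transcripts summed to over 99% of the level of that gene, which GENCODE M21 types as a processed transcript. Over the 9 libraries, listed transcripts summed to 54.0% to 72.2% of the gene level for Hspb6 and 7.80% to 71.8% for Dnaja1. The sums were 12.2% to 45.4% for Hspa14 and 7.53% to 32.2% for Hspa8. The levels given for these genes may thus not be protein-coding messenger alone.

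Genes that work beside the 42 were called in both directions. Their counts stand against 20.7% of all genes called in APAP against Control livers, 11.3% higher and 9.4% lower, and most lie near or below that share. Of 13 other HSP90 co-chaperones, Fkbp4, an immunophilin of steroid receptor complexes, rose 1.36-fold in APAP relative to Control livers and Ttc4 fell (limma adjusted p = 0.0243 and 0.0210), calls that were lost in 6 and 3 of 16 alternatives. Of 9 tested HSP70 co-chaperones, Bag4 fell, with 8.22, 9.22 and 8.50 FPKM in APAP livers and 16.6, 16.7 and 13.4 FPKM in Control livers (limma adjusted p = 0.00705). Of 23 tested DNAJC and further DNAJB genes, 1 rose and 5 fell. Dnajc28 had 0.875, 1.31 and 1.16 FPKM in dmPGE2+APAP livers, 1.14, 1.11 and 1.00 FPKM in APAP livers, and 2.88, 2.52 and 2.39 FPKM in Control livers, lower in all 6 treated livers (limma adjusted p = 0.00247 for APAP against Control). Of all 11557 genes tested, 3541 were below Control without overlap in APAP livers and 3589 in dmPGE2+APAP livers. Dnajc12, a partner of the aromatic amino acid hydroxylases, averaged 1.12 ± 0.227 FPKM in APAP livers and 3.57 ± 1.97 FPKM in Control livers (SD, n = 3), and its call was lost without APAP replicate 1 or 3 (limma adjusted p = 0.0197 with all libraries). Of 14 prefoldin subunits and CCT partners, Tbce, a tubulin folding cofactor, rose and Pdcl and Tbcd fell; the call of Pdcl was lost without APAP replicate 1 or Control replicate 1 (highest adjusted p 0.0530).

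Of 17 mitochondrial co-chaperones and proteases, 2 were called, a smaller share than over all genes. Clpx, the unfoldase of the mitochondrial protease ClpXP, rose and Hscb, a J protein of iron-sulphur cluster assembly, fell in APAP relative to Control livers. Clpx had 109, 130.1 and 123 FPKM in dmPGE2+APAP livers, 78.9, 112 and 75.4 FPKM in APAP livers, and 33.1, 30.6 and 31.0 FPKM in Control livers. Every treated liver was more than 2-fold above every Control liver, while the 5 mitochondrial chaperones were not called. Clpx was 3.01-fold higher in APAP livers and 4.23-fold higher in dmPGE2+APAP livers than in Control livers (limma adjusted p = 0.000370 and 0.000132), and both calls held in all 16 alternatives. The call of Hscb was lost in 9 of 16 (limma adjusted p = 0.0457). Among the HSF1 target genes, Zfand2a was 2.20-fold higher in dmPGE2+APAP than in Control livers (limma adjusted p = 0.00953). In dmPGE2+APAP against APAP livers limma called 0 genes of these lists, with 8 at an unadjusted p below 0.05, where 9.36% of all genes tested were.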

How the data were processed

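Ribosomal RNA-depleted, strand-marked RNA was sequenced as 9 mouse liver libraries, per the labels' protocols. The submitters' processing notes list HISAT2 and the build GRCm38. No source used here states the quantifier or its annotation (not given in the sources used here). The deposited values used were FPKM per gene and per noncoding transcript, as the authors computed them, so depth and counting error are unknown. The deposited read count tables were not used, because their whole numbers were a score and not counts of reads in exons: they were proportional to FPKM times genomic span, introns included, for 100% of noncoding transcripts and for 84.9% to 86.1% of messenger genes with 1 annotated transcript (within 1% of 1 factor per library, at scores of 1000 or more). Messenger genes with several transcripts did not follow 1 such factor. The columns named BC, which the labels do not define, were taken as Control because it was the 1 group without columns.

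FPKM were divided by a scale factor per library (trimmed mean of log ratios, trimming 30% by ratio and 5% by abundance), and log2(value + 0.1) was fitted in limma 3.58.1 (R 4.3.3) with 3 group means, 6 residual degrees of freedom and a mean-dependent prior variance. Genes at 0.5 FPKM or more (transcripts at 0.1) in at least 3 libraries were tested, with two-sided p-values adjusted by Benjamini-Hochberg over all 11557 genes or 22984 transcripts at a threshold of 0.05. Rescaling shifted log2 fold changes of genes by 0.12 for APAP against Control, 0.03 for dmPGE2+APAP against APAP and 0.15 for dmPGE2+APAP against Control. For noncoding transcripts the factors came from genes and transcripts together. Their shifts were -0.05, 0.09 and 0.04 in the same order, so gene and transcript fold changes stand on different scales. FPKM sums were 371958 to 393938 per library, and no 2 libraries were identical. The procedure was tested on simulated data. Promoters came from RefSeq (GRCm38.p6) and gene models from GENCODE M21.

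The members and lists were chosen with earlier results of these data known. All 42 genes are named. Of each list of neighbouring genes, the text names the 2 called genes with the largest change in APAP against Control, and other called genes of short counts were named after their values were seen. Markers are named beside a result, and noncoding transcripts where called, plus Hspa8-207 and Dnaja1-204, chosen after their values were seen. Alternatives were another added constant, no filter, no or median-of-ratios scaling, only the 2 groups compared, a robust prior, a replicate block and leaving out each library.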

Additional observations from a re-analysis of the deposited data

How the results depend on the processing

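The number of chaperone genes called kept within 1.5 times of its value in each alternative, at 13 to 15 in APAP against Control, 0 in dmPGE2+APAP against APAP and 11 to 14 in dmPGE2+APAP against Control when 1 library was left out. Over all genes, leaving out 1 library gave 1558 to 2305 calls (2393 with all), 0 to 42 (0 with all; 42 without dmPGE2+APAP replicate 1) and 1028 to 1814 (1870 with all; 1028 without dmPGE2+APAP replicate 2, 1135 without its replicate 3 and 1243 without Control replicate 2) in the same order. With only the 2 groups compared, dmPGE2+APAP against APAP gave 2 genes. With no rescaling, APAP against Control gave 974 higher and 2107 lower genes (1307 and 1086 with it) and dmPGE2+APAP against Control 714 and 1792 (1057 and 813 with it), and 17 chaperone genes were called in APAP against Control, 14 higher and 3 lower (Cct8, Dnaja2 and Hsf2). The median of the 22 HSP70, HSP90, DNAJ and small heat shock protein genes minus the CCT and mitochondrial median was 0.69, -0.11 and 0.51 on the log2 scale. It was 0.504 with an added constant of 1 FPKM in APAP against Control, and leaving out 1 library gave 0.600 to 0.763, -0.164 to -0.0365 and 0.479 to 0.575. In dmPGE2+APAP against APAP, where no gene was called, the log2 difference of genes and transcripts called in another comparison changed sign when 1 library was left out for Dnaja1 (-0.174 to 0.0793), Hspa4l (-0.203 to 0.0114), Hspb1 (-0.331 to 0.112), Hspb8 (-0.122 to 0.00882), Hspb8-202 (-0.771 to 0.0345) and Stip1 (-0.0319 to 0.165). Leaving out APAP replicate 1 turned all of these but Stip1, and leaving out dmPGE2+APAP replicate 2 also turned Dnaja1. Among the 27 genes called in no comparison, 79 of 1296 alternative values changed sign, none larger than 0.190 in size. The cause was not tested.

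Same-numbered libraries correlated at -0.117 to 0.0716 in their deviations from group means. The best correlation with a library of another number lay between -0.0120 and 0.149. Whether replicate numbers pair the libraries was not tested. A fit with the replicate number as a block called 2025, 0 and 1490 genes and 15, 0 and 15 chaperone genes, with Dnaja1 and Chordc1 (adjusted p = 0.0437 each) added in dmPGE2+APAP against Control.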
